A study of Mus musculus with 12 samples.

Results

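The 9 genes described here are regulators of progenitors and newborn neurons of the ganglionic eminences, the embryonic ventral forebrain domains that form the striatum and send out GABAergic interneurons. They are the homeobox genes Dlx1, Dlx2, Dlx5, Dlx6 and Gsx2, the Notch ligand genes Dll1 and Dll3, the Hes-family gene Hes6 and the growth arrest gene Gadd45g. They were taken by symbol, with earlier results of these data known, and all 9 were found among the 25428 probe sets of the array, 1 probe set each. Striatal tissue from both hemispheres was taken at embryonic day 18.5 from wild-type (WT) and Nestin-Cre (Foxp1-/-) embryos on the C57BL/6J background, the latter called cKO here, with 6 biological replicates per genotype and 1 array for each. Nestin drives Cre in neural progenitors and their offspring, so the deletion of Foxp1, a forkhead factor of striatal projection neurons, reaches the neural lineage beyond the striatum. The comparison asks which striatal transcripts differ between the genotypes shortly before birth. The sources used here do not give the litter, the sex, the deleted Foxp1 exons or whether a replicate is 1 embryo or a pool.

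In the ganglionic eminences, Gsx2 acts in dividing radial progenitors and sets ventral identity, and the Dlx genes follow as cells leave the ventricular zone and take a GABAergic fate. Dlx1 and Dlx2 come on before Dlx5 and Dlx6, and Dlx products stay in many postmitotic striatal cells and interneurons. Dll1 is presented by newly committed cells and activates Notch in their neighbours, Dll3 does not activate Notch in neighbours but acts in the cell that makes it, and Hes6 opposes Hes1 and favours neuronal differentiation. Gadd45g is switched on in cells that leave the cell cycle.

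All values are log2 expression after RMA, which background-corrects the arrays, gives them a shared distribution and summarises the probes of each gene. A difference of 1 is thus a 2-fold change, and the whole table ran from 5.21 to 13.99 with a median of 5.71. The arrays correlated with each other at 0.992 to 0.998. Foxp1 was 1.88-fold lower in cKO, with no overlap between the genotypes. As markers of the dissected tissue, the striatal genes Foxp2, Bcl11b and Ebf1 stood at 10.63 or above on every array, while the cortical genes Emx1 and Slc17a7 stayed near the floor (5.42 to 5.95). The cortical genes Neurod6 (5.97 to 7.41) and Tbr1 (6.59 to 7.72) varied between arrays, and the mean of these 4 cortical genes was 6.32 ± 0.26 (SD, n = 6) for cKO against 6.09 ± 0.15 (SD, n = 6) for WT. The array of cKO replicate 1 stood apart in Ttr, a choroid plexus gene, at 9.96 against 5.39 to 5.57 on the other 11. WT replicates 3 and 6 had the lowest mean correlation with the other arrays of their genotype (0.995 for each). Counts are therefore also given without these arrays.

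None of the 9 genes changed past the threshold in the cKO striatum. In limma, with p-values adjusted by the Benjamini-Hochberg method over all 25428 probe sets, 0 of 9 had an adjusted p below 0.05, where 0.728% of all probe sets did (0.299% higher and 0.429% lower in cKO). At an unadjusted p below 0.05 the count was 4 of 9, Dlx5, Dlx6, Gsx2 and Gadd45g, all higher in cKO. The background for that direction was 5.06% of all probe sets, with 5.67% lower and 10.7% for both directions together. Without WT replicates 3 and 6 the count was 3 (Dlx5, Gsx2 and Gadd45g), and without cKO replicate 1 it was 3 (Dlx5, Dlx6 and Gadd45g). Of the 9 changes 7 were positive, where 48.8% of all probe sets had a positive change. The median change was 0.093 for the 9 genes and -0.00077 for all probe sets. WT and cKO arrays overlapped for each of the 9 genes, and did not overlap for 1.38% of all probe sets. In bulk tissue, fewer cells of a type and less RNA per cell cannot be told apart.

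**Figure D1:**
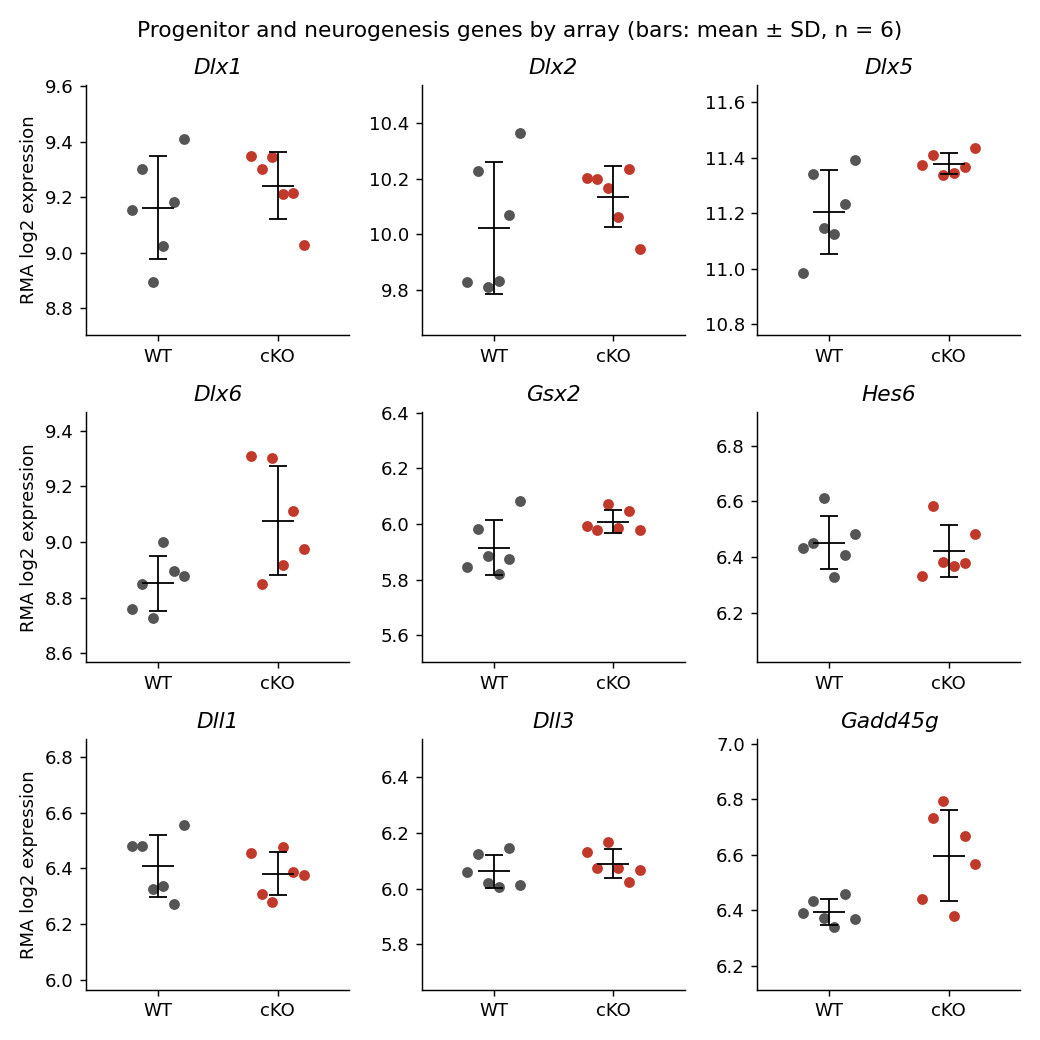
RMA log2 expression of each of the 9 genes, with 1 point per array in replicate order for WT (grey) and cKO (red), 6 arrays each, and bars for the mean and SD. Dlx5, Dlx6, Gsx2 and Gadd45g have the higher mean in cKO with overlapping arrays, and the panels of Hes6, Dll1 and Dll3 show changes between -0.031 and 0.028.

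Gsx2, the homeobox gene of ventricular zone progenitors, read 5.85, 5.98, 5.88, 5.82, 5.87 and 6.08 in WT replicates 1 to 6. The cKO replicates 1 to 6 read 5.99, 5.98, 6.07, 5.98, 6.04 and 5.98. No cKO array exceeded the highest WT array, but 4 WT arrays lay below the lowest cKO array. The difference was 0.093 ± 0.041 (SE) log2 units, or 1.07-fold, with a 95% interval from 0.0025 to 0.18 (limma adjusted p = 0.446). Its level lies close to 5.71, the median of the whole table, and close to the floor. The WT mean (5.915) falls in the range of the cortical genes Emx1 and Slc17a7 (5.42 to 5.95), and the cKO mean (6.008) just above it.

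Dlx1 and Dlx2, the homeobox genes that act first in the Dlx series, had the smallest differences of the 4 Dlx genes. Dlx1 read 9.15, 9.30, 8.90, 9.02, 9.18 and 9.41 in WT and 9.35, 9.30, 9.35, 9.21, 9.21 and 9.03 in cKO. All 6 cKO arrays lay within the WT range. The difference was 0.080 ± 0.084 (SE), with a 95% interval from -0.10 to 0.26 (limma adjusted p = 0.792). Dlx2 read 9.83, 10.23, 9.81, 9.83, 10.07 and 10.36 in WT and 10.20, 10.20, 10.17, 10.06, 10.24 and 9.95 in cKO, again with every cKO array inside the WT range. The difference for Dlx2 was 0.11 ± 0.10 (SE), with a 95% interval from -0.10 to 0.33 (limma adjusted p = 0.741). The interval thus reaches 1.20-fold higher for Dlx1 and 1.26-fold higher for Dlx2.

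Dlx5, needed with Dlx6 for GABAergic and interneuron differentiation, read 10.99, 11.34, 11.14, 11.12, 11.23 and 11.39 in WT. In cKO it read 11.38, 11.41, 11.34, 11.34, 11.37 and 11.44. The cKO arrays were tightly grouped (SD 0.038, against 0.15 in WT), all 6 lay above the WT median and 4 WT arrays lay below every cKO array. The difference was 0.17 ± 0.06 (SE), or 1.13-fold, with a 95% interval from 0.046 to 0.30 (limma adjusted p = 0.279).

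Dlx6 showed the widest difference in log2 units of the 9 genes. It read 8.76, 8.85, 8.73, 9.00, 8.90 and 8.88 in WT and 9.31, 8.85, 9.30, 8.92, 9.11 and 8.97 in cKO. Replicates 1, 3 and 5 of cKO lay above the highest WT array, and the other 3 lay among the WT values. The difference was 0.23 ± 0.08 (SE), or 1.17-fold, with a 95% interval from 0.043 to 0.41 (limma adjusted p = 0.336). Without cKO replicate 1, the array with high Ttr, it was 0.18 (adjusted p = 0.474).

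The Dlx genes lie in neighbouring pairs, Dlx1 with Dlx2 on chromosome 2 and Dlx5 with Dlx6 on chromosome 6, and in the RefSeq gene table of GRCm38.p6 no other gene lies wholly between the members of a pair. Transcripts named Dlx1as, Dlx6os1 and Dlx6os2 overlap these loci, and each had a probe set of its own. They were singled out after their values were seen. Dlx6os1, a long noncoding RNA of the Dlx5 and Dlx6 locus, had a cKO mean of 11.49 ± 0.09 (SD, n = 6) and a WT mean of 11.32 ± 0.13 (SD, n = 6), a difference of 0.18 ± 0.06 (SE) (limma adjusted p = 0.299). The difference was 0.13 ± 0.09 (SE) for Dlx6os2 (adjusted p = 0.668) and 0.10 ± 0.06 (SE) for Dlx1as (adjusted p = 0.596). All 3 point estimates were positive, like those of the Dlx genes, and none passed. Whether probes of overlapping genes share signal was not tested.

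**Figure D2:**
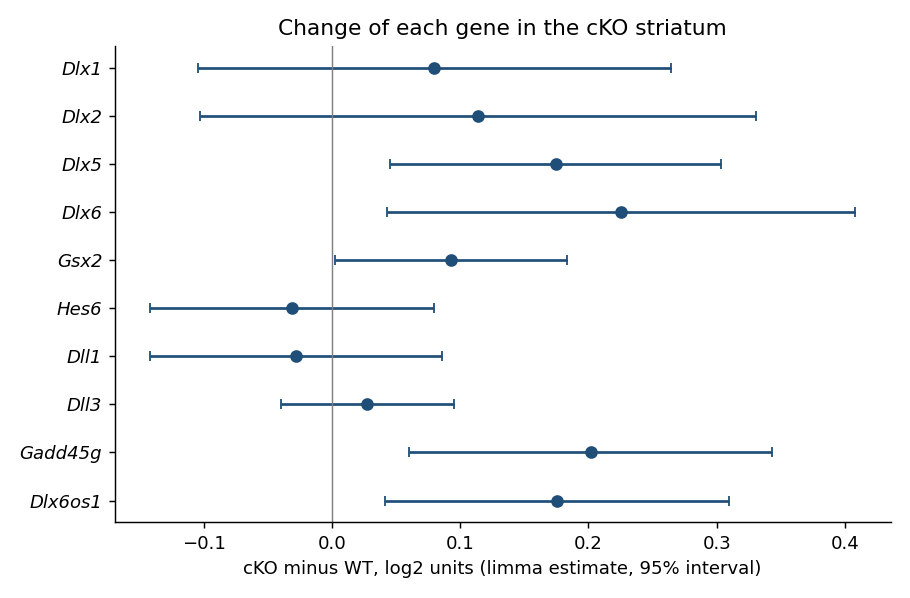
Difference between cKO and WT in log2 units for the 9 genes and Dlx6os1, with limma's 95% interval as the bar. The intervals of Dlx5, Dlx6, Gsx2, Gadd45g and Dlx6os1 lie above 0 before adjustment, and those of Dlx1, Dlx2, Hes6, Dll1 and Dll3 include 0.

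Dlx1 and Dlx2 were the pair with the smallest p among the correlations from array to array. After the mean of each genotype was removed, their values over the 12 arrays had a Pearson r of 0.875 (permutation p = 0.0004, adjusted p = 0.0144 over the 36 pairs of the 9 genes). Spearman's rho was 0.804 (permutation p = 0.00648, adjusted p = 0.233). Without the 2 arrays farthest from the median of Dlx1, r was 0.792, and it was 0.907 within WT and 0.811 within cKO. No other pair passed the adjustment. Relative to the mean of their genotype, the 12 arrays lie in 2 ranges of cell cycle gene level (7 upper and 5 lower). The relation was recomputed within the upper range after the data were seen. There r was 0.77 and rho 0.536 for Dlx1 and Dlx2 (exact permutation p = 0.048 and 0.236, adjusted p = 0.288 and 0.53 over the 36 pairs). With 7 arrays and a narrower spread of levels, this cannot decide whether the relation holds within that range. The 5 lower arrays are too few for a value. The neighbours Dlx5 and Dlx6 had an r of 0.0221 and a rho of -0.112 (permutation p = 0.928 and 0.688, adjusted p = 0.928 and 0.917), and r was -0.233 without the 2 farthest arrays. Gsx2 and Dlx2 came nearest to the threshold, with an r of 0.84 and a rho of 0.722 (permutation p = 0.00465 and 0.0365, adjusted p = 0.0837 and 0.329), and r was 0.759 without the 2 farthest arrays and 0.838 within the 7 upper arrays (exact permutation adjusted p = 0.196).

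The sequences just upstream of the Dlx1 and Dlx2 start sites are shown because this is the pair whose Pearson correlation passed over all 12 arrays. Its rank correlation did not pass, and neither did within the 7 arrays. Both are the 100 bases before the RefSeq start, 5′ to 3′ on the gene's strand, with CG dinucleotides in capitals. Dlx1 is at chr2:71529345-71529444 on the plus strand and Dlx2 at chr2:71546755-71546854 on the minus strand of GRCm38.p6.
Dlx1: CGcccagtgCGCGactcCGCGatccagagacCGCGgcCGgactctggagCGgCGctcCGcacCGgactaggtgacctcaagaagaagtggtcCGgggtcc
Dlx2: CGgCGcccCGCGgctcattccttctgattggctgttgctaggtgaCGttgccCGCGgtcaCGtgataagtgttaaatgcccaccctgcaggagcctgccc
In the full window, from 250 bases before to 50 after the start, Dlx1 held 27 CG dinucleotides and Dlx2 held 29. The median over all 32851 RefSeq windows of that length was 7, and 15.5% and 12.9% of them held at least as many. Both promoters are thus rich in CG. The windows of Gsx2, Hes6, Dll1, Dll3 and Gadd45g held 11 to 24, also above the median, so this was not particular to the pair.

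The levels of Dlx1 and Dlx2 were set beside those of dividing-cell genes. The mean of 27 cell cycle genes ran from 7.06 to 7.27 in WT (7.15 ± 0.09, SD, n = 6) and from 7.13 to 7.32 in cKO (7.26 ± 0.08, SD, n = 6). Relative to the mean of their genotype, 5 arrays (WT replicates 1, 3 and 4 and cKO replicates 4 and 6) had deviations from -0.134 to -0.067 and the other 7 from 0.047 to 0.127, with none between. Dlx2 split the same way, with deviations from -0.21 to -0.073 on the 5 arrays and from 0.031 to 0.34 on the 7. For Dlx1 the ranges met, at -0.27 to -0.0072 and -0.027 to 0.25. Over all 12 arrays r with the cell cycle mean was 0.826 for Dlx1 and 0.88 for Dlx2, with rho at 0.93 and 0.867. The permutation adjusted p was 0.0256 for both r values, and 0.00324 and 0.0179 for rho. The adjustment ran over the 9 genes with the cell cycle, cortical and radial glia means. Dlx2 and the radial glia mean had an r of 0.83 and a rho of 0.874 (permutation adjusted p = 0.0585 and 0.0179). Because the deviations of the cell cycle mean fell into 2 ranges, the correlations with that mean partly reflect the step between the ranges. Within the 7 upper arrays r with the cell cycle mean was 0.348 for Dlx1 and 0.44 for Dlx2, with rho at 0.786 and 0.571 (exact permutation adjusted p = 0.814, 0.767, 0.216 and 0.343 over the 9 genes).

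**Figure D3:**
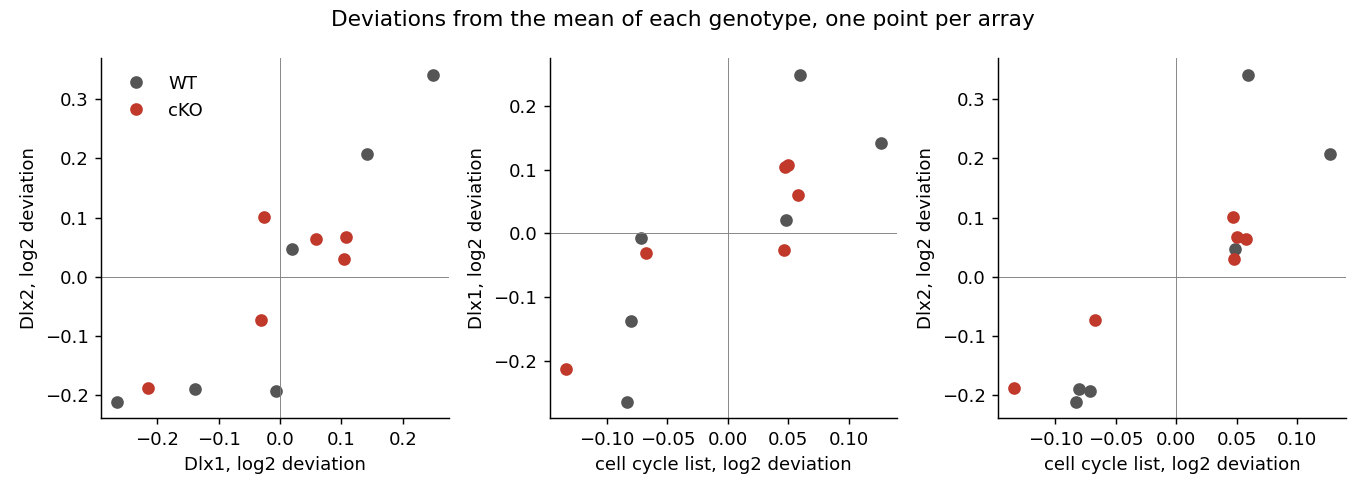
Deviations of log2 values from the mean of each genotype, 1 point per array, for Dlx2 against Dlx1 (left), Dlx1 against the mean of 27 cell cycle genes (middle) and Dlx2 against that mean (right). The cell cycle mean splits the arrays into 5 below and 7 above their genotype's mean, both genotypes in each, and the same 5 have the lowest Dlx2 values relative to their genotype.

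With the cell cycle mean as a covariate, 0 of the 9 genes had an unadjusted p below 0.05. The changes were then 0.094 for Dlx5, 0.16 for Dlx6, 0.030 for Gsx2 and 0.13 for Gadd45g (limma adjusted p = 0.771, 0.749, 0.911 and 0.707). Those of Dlx1 and Dlx2 turned to -0.096 and -0.11 (adjusted p = 0.747 and 0.706). The cell cycle mean was itself higher in cKO (7.26 against 7.15 in WT), and its deviations from the genotype means fell into separate ranges. Adjusting for it can thus remove part of a genotype difference. Whether cell cycle level accounts for the changes was not tested. With the mean of the 4 cortical genes as a covariate, the changes of Dlx6 (0.31, adjusted p = 0.286) and Gadd45g (0.22, adjusted p = 0.411) kept an unadjusted p below 0.05. Those of Dlx5 (0.12, adjusted p = 0.603) and Gsx2 (0.10, adjusted p = 0.57) did not. The cortical mean was also higher in cKO (6.32 against 6.09 in WT), so the same limit applies to this covariate.

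Among the Notch genes, the ligand gene Dll1 read 6.48, 6.48, 6.33, 6.33, 6.27 and 6.55 in WT and 6.46, 6.31, 6.28, 6.47, 6.39 and 6.38 in cKO. No cKO array lay above or below the WT range. The difference was -0.028 ± 0.052 (SE), with a 95% interval from -0.14 to 0.086 (limma adjusted p = 0.901). Dll3, the ligand-like gene that acts within its own cell, read 6.06, 6.12, 6.02, 6.01, 6.15 and 6.01 in WT and 6.13, 6.08, 6.17, 6.07, 6.02 and 6.07 in cKO. 1 array, cKO replicate 3, lay above the WT range. The difference was 0.028 ± 0.031 (SE), with a 95% interval from -0.040 to 0.095 (limma adjusted p = 0.804).

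Hes6, the antagonist of Hes1, read 6.43, 6.45, 6.61, 6.33, 6.41 and 6.48 in WT and 6.33, 6.58, 6.38, 6.37, 6.38 and 6.48 in cKO. All 6 cKO arrays lay within the WT range, and the highest value was that of WT replicate 3. The difference was -0.031 ± 0.051 (SE), with a 95% interval from -0.14 to 0.079 (limma adjusted p = 0.881), and without WT replicate 3 it was 0.00082. Hes6 and Dlx6 ran opposite to each other over the 12 arrays, with an r of -0.707 and a rho of -0.657 after the genotype means were removed (permutation p = 0.0103 and 0.0358, adjusted p = 0.123 and 0.329 over the 36 pairs). Without the 2 farthest arrays r was -0.537, and within the 7 upper arrays it was -0.889 (exact permutation adjusted p = 0.131).

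Gadd45g, linked to cell cycle exit, had the smallest p of the 9 genes. It read 6.39, 6.43, 6.37, 6.34, 6.46 and 6.37 in WT and 6.44, 6.73, 6.79, 6.38, 6.67 and 6.57 in cKO. Replicates 2, 3, 5 and 6 of cKO lay above every WT array, and replicates 1 and 4 lay within the WT range. The SD was 0.16 in cKO and 0.045 in WT. The difference was 0.20 ± 0.06 (SE), or 1.15-fold, with a 95% interval from 0.060 to 0.34 (limma adjusted p = 0.252). Without cKO replicate 1 it was 0.23 (adjusted p = 0.197).

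The promoters of these last 4 genes share a feature that had no part in naming them. RefSeq windows were at hand for 7 of the 9 genes, with 2 windows each for Hes6 and Dll1, and these were searched on both strands for short motifs. CAGCTG, an E-box that proneural factors bind and that reads the same on both strands, occurred in a window of Hes6, Dll1, Dll3 and Gadd45g, and in none of Dlx1, Dlx2 or Gsx2. It occurs in 16.3% of all 32851 windows. The stretches with the match are shown 5′ to 3′ on the gene's strand, with CAGCTG in capitals.
Hes6, upstream start: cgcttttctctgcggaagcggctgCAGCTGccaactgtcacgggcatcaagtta
Hes6, downstream start: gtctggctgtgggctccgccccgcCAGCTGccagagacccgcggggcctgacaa
Dll1, upstream start: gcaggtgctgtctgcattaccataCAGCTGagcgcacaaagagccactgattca
Dll3: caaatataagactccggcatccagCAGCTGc
Gadd45g: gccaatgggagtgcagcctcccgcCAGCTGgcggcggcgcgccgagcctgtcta
On GRCm38.p6 these lie at chr1:91414180-91414233 and chr1:91413343-91413396 for Hes6, chr17:15377035-15377088 for Dll1 and chr7:28301786-28301816 for Dll3, all on the minus strand, and at chr13:51846596-51846649 on the plus strand for Gadd45g. The match begins 171 and 150 bases before the 2 Hes6 starts, 132 before the Dll1 start, 7 before the Dll3 start and 55 before the Gadd45g start. Of the 4 genes that hold the match, Gadd45g had a change of 0.20 and the other 3 had changes between -0.031 and 0.028. None of the 4 passed the threshold, and differences between them were not tested. The homeodomain motifs TAATTA and CAATTA (5.29% and 8% of all windows) and the forkhead motif TGTTTAC (3.65%) occurred in no window of the 7 genes. TAATT, which TAATTA contains, occurred in Gsx2 and Dll3 (27% of all windows), and TGGGAA, the core of the Rbpj site, in Gadd45g (25.6%).

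The other genes of these pathways were read from the same fit, leaving out the 9 genes. Of 19 further transcription factors of the ganglionic eminences 0 passed in limma, and at an unadjusted p below 0.05 there were 4 higher and 2 lower, with a median change of 0.014. The nearest were Vax1, a ventral forebrain homeobox gene, at 0.24 ± 0.05 (SE) (adjusted p = 0.0509), and Six3, a homeobox gene of the indirect-pathway lineage, at 0.37 ± 0.08 (SE) (adjusted p = 0.0601). Vax1 passed in 7 and Six3 in 3 of 24 alternatives. Of 27 further Notch pathway genes 1 rose and 0 fell, with 6 higher and 2 lower unadjusted and a median of 0.014. The gene that rose was Dlk1, a non-canonical ligand gene (0.68 ± 0.06 SE, adjusted p = 0.000406). The Notch readouts Hes1 and Hes5, singled out after their values were seen, stood at -0.015 (adjusted p = 0.907) and 0.021 (adjusted p = 0.908).

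Of 26 further proneural and cell cycle exit genes 1 rose and 0 fell, with 5 higher and 2 lower unadjusted and a median of 0.037. Btg2, an antiproliferative gene of neurogenic progenitors, rose by 0.15 ± 0.02 (SE) (limma adjusted p = 0.012), from 5.93 ± 0.04 (SD, n = 6) to 6.08 ± 0.04 (SD, n = 6), with no overlap between the genotypes. These levels are close to the floor, with the WT mean in the range of Emx1 and Slc17a7 (5.42 to 5.95). The call was lost without WT replicates 3 and 6 and with either the cell cycle or the cortical mean as a covariate (adjusted p up to 0.131). The paralogues Gadd45a and Gadd45b, singled out after their values were seen, stood at -0.048 (adjusted p = 0.824) and 0.037 (adjusted p = 0.595).

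Of 16 genes of immature neurons 0 passed, with 4 higher and 2 lower unadjusted and a median of 0.0049. The lowest p belonged to Dcx, of migrating neurons (0.076 ± 0.020 SE, adjusted p = 0.128), and to the transcription factor gene Sox4 (0.22 ± 0.06 SE, adjusted p = 0.193). Of 15 genes of GABA synthesis and of Dlx-dependent differentiation 1 rose and 2 fell, with 4 higher and 2 lower unadjusted and a median of 0.033. Maf, an interneuron transcription factor gene, rose by 0.57 ± 0.09 (SE) (adjusted p = 0.015), while the chemokine receptor gene Cxcr4 fell by 0.42 ± 0.08 (SE) (adjusted p = 0.0341) and Gucy1a1, a guanylate cyclase subunit gene, fell by 0.38 ± 0.06 (SE) (adjusted p = 0.0152). The call held in 21 of 24 alternatives for Maf, 20 for Gucy1a1 and 14 for Cxcr4. Cxcr4 missed the threshold when any 1 of WT replicates 2 and 3 and cKO replicates 1, 2, 3, 4 and 6 was left out (adjusted p up to 0.184 over the alternatives). The genes of this list that passed thus moved in both directions.

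Of 15 radial glia genes 0 passed, with 5 higher and 1 lower unadjusted and a median of 0.032, and Sox2 (0.37, adjusted p = 0.111) and Sox9 (-0.36, adjusted p = 0.141) pointed in opposite directions. Of 27 cell cycle genes 25 had a positive change, with 8 higher and 0 lower unadjusted and a median of 0.10. Aurkb, a mitotic kinase gene, rose by 0.22 ± 0.04 (SE) (adjusted p = 0.0303). The Aurkb call held in 14 of 24 alternatives, and was lost without any 1 of WT replicates 4 and 5 and cKO replicates 2, 3 and 5 (adjusted p up to 0.239 over the alternatives). Among 17 striatal projection neuron genes 9 were lower and 2 higher unadjusted, with a median of -0.20. Past the threshold 3 fell and 0 rose, and 1 of the 3 is Foxp1, the deleted gene, whose fall of 0.91 (adjusted p = 0.00017) is set by the design. The other 2 were the transcription factor gene Ikzf1, which fell by 0.59 ± 0.07 (SE) (adjusted p = 0.00353), and the phosphodiesterase gene Pde10a, which fell by 0.59 ± 0.09 (SE) (adjusted p = 0.00869). With the replicate number as a block both missed the threshold (adjusted p up to 0.0718 over the alternatives), and Pde10a also did with the cortical or the cell cycle mean as a covariate. Replicate numbers did not pair the arrays, so the block mainly costs degrees of freedom, and a call lost with it says little about the gene. Of 13 genes listed as cortical 1 rose and 0 fell, the corepressor gene Tle4 (0.29 ± 0.03 SE, adjusted p = 0.00303), a call lost with the replicate block (adjusted p up to 0.0524 over the alternatives). All 13 changes were positive, with 3 higher and 0 lower unadjusted and a median of 0.090. Tle4 had a mean of 9.65 in WT and 9.93 in cKO, above the highest value of the 4 defining cortical genes (7.72). Whether its signal came from cortical cells was not tested. Of the 4 defining cortical genes 0 passed, with Neurod6 at 0.51 (adjusted p = 0.408) and Tbr1 at 0.34 (adjusted p = 0.587). Of 11 interneuron markers from the medial eminence Maf was the 1 that rose and Cxcr4 the 1 that fell. In the 8 lists for pallial progenitors, pallidum and septum, astrocytes, oligodendrocyte lineage, microglia, vessels, choroid plexus and erythroid cells 0 genes passed in limma, and 3 were higher and 2 lower with an unadjusted p below 0.05. The 2 genes with the smallest p in each were Pax6 and Neurog2, Gbx1 and Otx2, Slc1a2 and Aldh1l1, Cspg4 and Olig1, Tmem119 and C1qb, Tek and Pdgfrb, Folr1 and Foxj1, and Alas2 and Hbb-bs, in the order of the lists. Their changes lay between -0.14 (Olig1) and 0.19 (Pax6), and their lowest adjusted p was 0.307 (Cspg4).

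**Figure D4:**
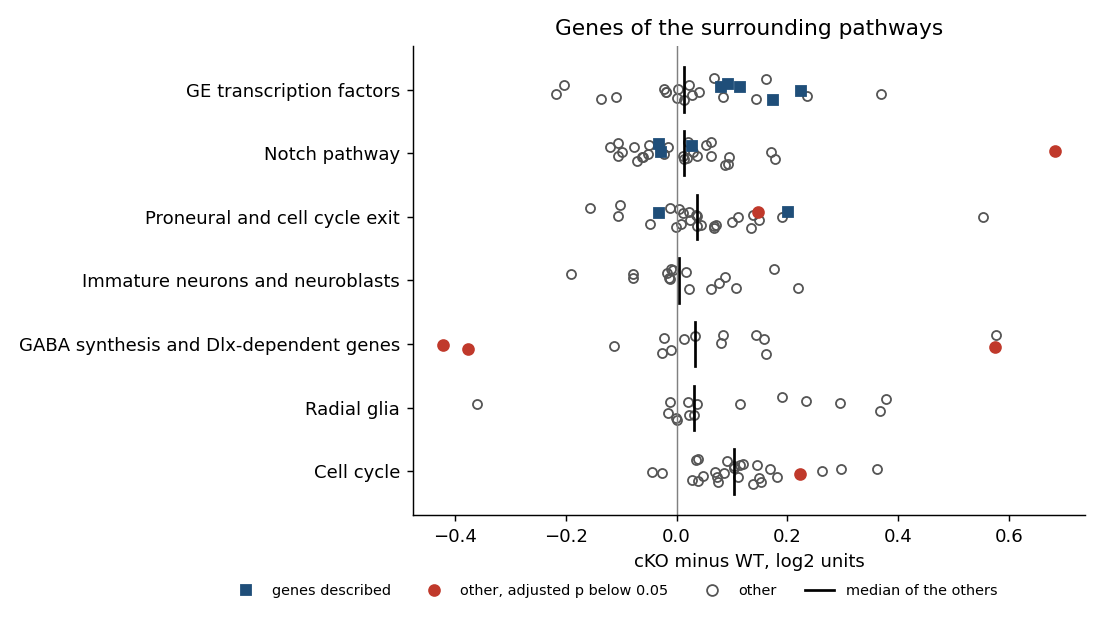
Difference between cKO and WT in log2 units for the genes of 7 lists around the 9 genes described, 1 symbol per gene, with a vertical bar at the median of the other genes of each list. The 5 homeobox genes described (squares in the top row) lie between 0.080 and 0.23, and the calls past an adjusted p of 0.05 (filled circles) are Dlk1, Btg2, Maf, Cxcr4, Gucy1a1 and Aurkb.

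The genes whose levels followed those of the Dlx genes most closely from array to array were found among 12277 other named probe sets above the median level. With the genotype means removed, the mean of Dlx1, Dlx2, Dlx5 and Dlx6 was most like Snord35a (r = 0.948 over 12 arrays), Zc3h4 (r = 0.942), H2ac22 (r = 0.94), Vezf1 (r = 0.939) and Ncapd2 (r = 0.929). The mean of Dll1, Dll3, Hes6 and Gadd45g was most like Mir760 (r = 0.889), D8Ertd738e (r = 0.874), Prdm15 (r = 0.864), Pigl (r = 0.811) and Lbr (r = 0.808). These are the highest of 12277 values each and are given as a description, not recomputed within the 2 ranges of cell cycle deviations. None of these 10 genes differed between the genotypes past the threshold (limma adjusted p from 0.311 to 0.958).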

How the data were processed

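Total striatal RNA of 6 WT and 6 cKO replicates was labelled with biotin, 1 array each. The deposited values are RMA log2 expression, per the submitters' processing notes, and the columns share a distribution, so a change common to all genes would not be visible. The sources used here name no array model, software or genome build. Of 25428 probe sets, 24674 had a symbol in the platform annotation, brought up to date with a RefSeq table of GRCm38.p6.

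The genotype difference was fitted with limma 3.58.1 (R 4.3.3, two-sided) over all probe sets and 12 arrays without covariates, with Benjamini-Hochberg adjustment and a threshold of 0.05. The script was tested on simulated data. Correlations used 100000 permutations within genotype, or all orders for the 7 arrays. The members and lists were chosen with earlier results of these data known. From each list up to 4 genes past the threshold are named, or the 2 with the smallest p, and likeness names the 5 closest genes above the median level. Genes of the lists that the table lacked were not analysed here. Whether replicates came from separate litters is not given, so p-values measure the spread between these samples. The number of arrays limits the precision. Replicate numbers did not pair the arrays.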

Additional observations from a re-analysis of the deposited data

Results flagged for a closer look

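Within each genotype, the highest or lowest array was compared with its neighbour for 47 genes, in 94 groups of 6 arrays, and 5 groups held an array whose gap took up more of the range than Dixon's 95% critical value. Chance alone marks about 1 in 20 such groups. None of the 9 progenitor and neurogenesis genes was among them. Ttr stood at 9.96 in cKO replicate 1, with a gap of 0.989 of the range. Ikzf1, a projection neuron factor gene, was highest in the same array, at 6.28. Dcx was lowest in cKO replicate 6, at 12.19, Sox4 was lowest in WT replicate 3, at 11.19, and Cxcr4 was highest in WT replicate 6, at 7.48.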

How the results depend on the processing

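In 24 alternatives, 1 of them (Xist) added after the data were seen, 0 of the 9 genes passed an adjusted p of 0.05, and the changes of Dlx5, Dlx6, Gsx2 and Gadd45g stayed positive. The count of the 9 genes at an unadjusted p below 0.05 was 4, and became 2 with the replicate number as a block, 2 with the cortical mean and 0 with the cell cycle mean as a covariate, and 3 to 4 when 1 array was left out. Of the 12 fits with 1 array left out, Gsx2 had an unadjusted p below 0.05 in 2. Dlx5, Dlx6 and Gadd45g had it in all 12. Directions turned for Dlx1 (-0.096), Dlx2 (-0.11) and Dll3 (-0.0094) with the cell cycle covariate. Hes6 turned without WT replicates 3 and 6 (0.016), and ran from -0.063 to 0.00082 when 1 array was left out. Dll1 ran from -0.055 to 0.0017, positive without WT replicate 6. All probe sets past the threshold numbered 185, against 279 without dim probe sets, 64 with the replicate block, 68 and 72 with the cortical and cell cycle covariates, and 106 to 227 without 1 array, with 106, 117 and 109 without cKO replicates 2, 3 and 5. List genes past it numbered 10, against 20 without dim probe sets, 20 with a trended prior, 4 with the replicate block, 4 and 5 with the 2 covariates, and 8 to 16 without 1 array, with 16 without WT replicate 1. The cause was not tested. Of the 6 same-numbered pairs, 1 had deviations correlated above 0.1, and 0 of 12 arrays correlated best with its own number.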

Other observations

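The Xist level, added after the data were seen, divided the arrays into those at 11.54 or above (WT replicates 3 and 4, cKO replicates 2, 3 and 5) and those at 5.69 or below. The 3 cKO arrays with high Xist had the 3 highest Gadd45g values of all 12, at 6.73, 6.79 and 6.67, and the other cKO arrays read 6.44, 6.38 and 6.57. In WT the 2 arrays with high Xist read 6.37 and 6.34, and the other 4 read 6.37 to 6.46. With Xist as a covariate the change of Gadd45g was 0.18 (limma adjusted p = 0.29), and 4 of the 9 genes kept an unadjusted p below 0.05. Whether the genotype difference itself depends on Xist level was not tested.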
